A study of Rattus norvegicus with 11 samples.

Results

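The 10 genes described here store, carry, import, export and sense iron. They are the ferritin chains Fth1 and Ftl1, the exporter Slc40a1 with its ferroxidase partner Cp, the carrier Tf and its receptor Tfrc, the divalent metal transporters Slc11a2 and Slc11a1, and the iron regulatory proteins Aco1 and Ireb2. They were taken by symbol from the 30560 genes of the table, where the 10 symbols stand on 11 rows because Ftl1 is listed 2 times. RNA was measured at day 3 in the striatum of 11 adult male Sprague-Dawley rats, with 1 library per rat. The 3 IC rats (common hemorrhage) had received 0.2 U of collagenase VII-S in 1.0 μL of saline in the right striatum. The 3 IS rats (severe hemorrhage) had received 0.6 U in 3.0 μL, and the 3 IS-HA rats had received the IS dose and then had 150 μL of hematoma withdrawn through a catheter at 6 h. The 2 Normal rats are uninjected controls, so that the needle, the enzyme and the blood cannot be told apart in any comparison with them, and the IS-HA rats also had a second anesthesia and a catheter that the IS rats did not have. Collagenase opens vessels by digesting their basement membrane, and the bleeding that follows is of the rat's own blood. The labels give male adults only and the rats of a group carry separate replicate numbers: 1 and 3 in Normal, 2, 3 and 4 in IC and IS, and 1, 2 and 3 in IS-HA.

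When red blood cells break down in brain tissue, phagocytes free iron from heme, and the iron is either stored in ferritin, a hollow shell of heavy and light chains, or sent out of the cell through ferroportin. Cells take iron up bound to transferrin through the transferrin receptor, or as free metal through divalent metal transporters. The iron regulatory proteins bind a hairpin in the messages of these genes when iron is scarce, which blocks translation of ferritin and ferroportin and protects the transferrin receptor message from decay. Much of this control acts on translation, and only RNA levels were measured here.

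The 11 libraries held 6701301 to 18817645 counts assigned to genes, and IS-HA replicate 2 was the smallest. At that depth 3 counts, taken as the floor of detection, equal 0.448 CPM (counts scaled to library size). The tissue carried striatal markers in every group, since all 11 neuronal markers, Drd1, Drd2 and Ppp1r1b among them, were detected. IS-HA replicate 2 also stood apart in its dependence on transcript length: relative to the mean of all rats, the longest genes minus the shortest genes (upper and lower quartile of length) gave -0.77 log2 units in it, 0.16 in each of the other 2 IS-HA rats, 0.40 and 0.70 in the Normal rats, 0.18, 0.16 and -0.06 in IC, and -0.19, -0.35 and -0.39 in IS. Levels are given in TPM, read counts divided by gene length and scaled to the same sum in each rat, which can be compared between genes. Differences are log2 fold changes fitted to the counts of all 15742 genes with enough reads by edgeR's quasi-likelihood F test, and an adjusted p under 0.05 after Benjamini-Hochberg adjustment over all of these genes was taken as a call.

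The RNA of the ferritin chains, of Slc11a1 and of Cp was several-fold higher in the injured striatum, that of Slc40a1, Tf and Aco1 was about doubled, and Tfrc, Slc11a2 and Ireb2 were not called in any comparison. All 10 genes had enough counts to be tested. Against Normal, 5 of the 10 were higher in IC, where 13% of all genes tested were called higher, and none was lower, where 4.64% were. In IS 7 of the 10 were higher and none lower, against 24.8% and 24.2% of all genes. In IS-HA the same 7 genes were higher and none lower, against 19.5% and 12.1% of all genes. The median log2 fold change of the 10 genes was 0.95 in IC, 1.07 in IS and 0.91 in IS-HA, and over all genes tested it was 0.00, 0.02 and 0.06. These 3 comparisons share the same 2 Normal rats, and the call counts lean on them. Without Normal replicate 1 the counts of iron genes higher were 2, 6 and 4 in IC, IS and IS-HA, where 6.51%, 17.6% and 10.6% of all genes were called higher. Without Normal replicate 3 they were 2, 5 and 2, against 4.96%, 14% and 7.62% of all genes, and without IC replicate 3 the count for IC was 3, against 8.32%.

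**Figure D1:**
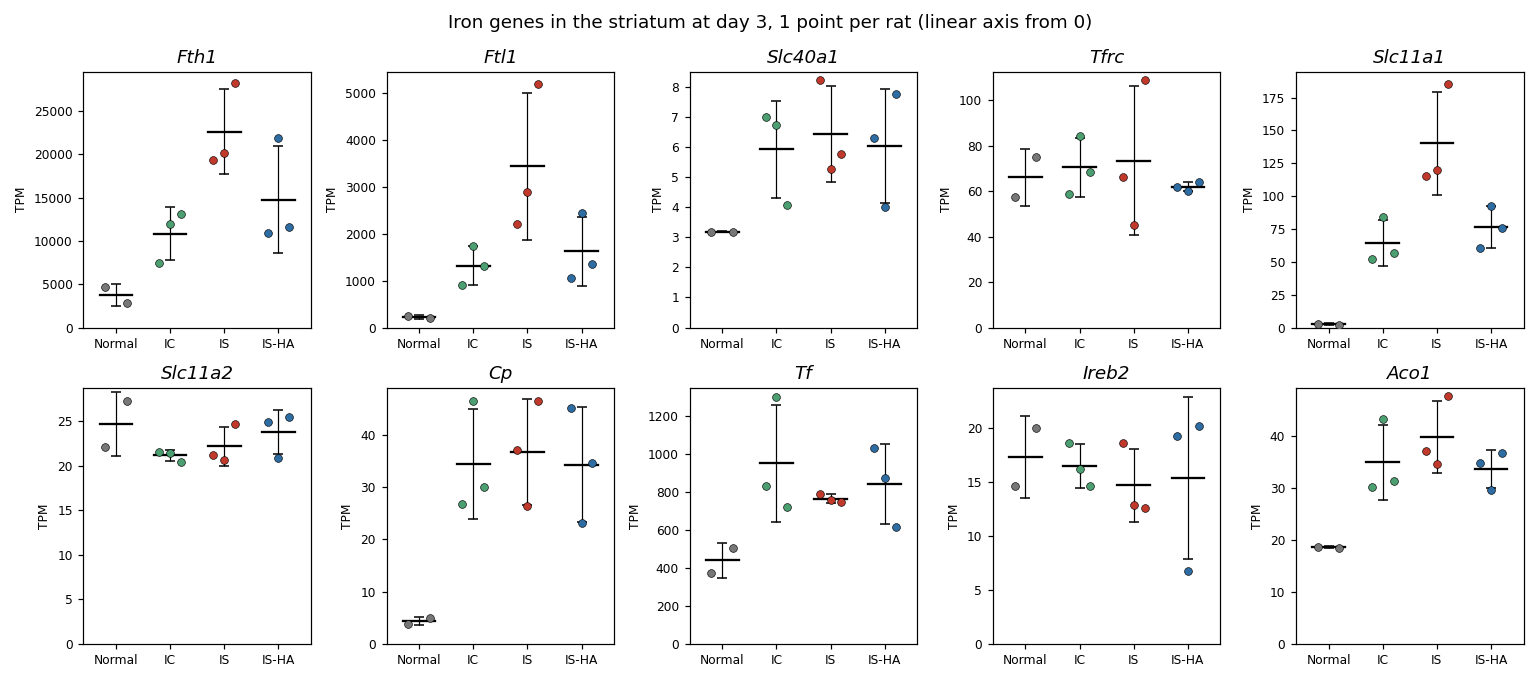
TPM (linear axis from 0) of the 10 iron genes, with 1 point per rat, the group mean as a horizontal line and the SD as a bar (2 Normal rats and 3 rats in each other group). For Fth1, Ftl1, Slc40a1, Slc11a1, Cp, Tf and Aco1 every injured rat lies above both Normal rats, and for Fth1, Ftl1 and Slc11a1 every IS rat lies above every IC rat.

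Fth1 encodes the ferritin heavy chain, which oxidizes iron as it enters the shell. Its level was 4675 and 2818 TPM in Normal replicates 1 and 3, 7420, 11972 and 13147 in IC replicates 2, 3 and 4, 19391, 20171 and 28218 in IS replicates 2, 3 and 4, and 10932, 21845 and 11547 in IS-HA replicates 1, 2 and 3. All injured rats were above both Normal rats, all IS rats were above all IC rats, and 1 IS-HA rat reached the IS range while the other 2 stayed in the IC range. The log2 fold change against Normal was 2.60 ± 0.52 (SE) in IS (edgeR's quasi-likelihood F test, adjusted p = 0.00251) and 2.02 ± 0.51 in IS-HA (adjusted p = 0.0133). In IC it was 1.47 ± 0.49 with an adjusted p of 0.0623 and was not called, although the 95% interval, 0.39 to 2.56, was above 0 and 6 of the 21 alternative fits called it. Fth1 is the shortest of the 10 genes, at 0.361 times the median length of the genes tested, and with a correction for the length trend its log2 fold change was 1.21 in IC, 2.09 in IS and 1.43 in IS-HA. The IS-HA call was lost without Normal replicate 3 (adjusted p = 0.137) and with only the 2 groups in the fit (0.0584). With the replicate number added to the fit as a block (the replicate block), the IS and IS-HA calls were both lost (0.0512 and 0.0643).

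Ftl1 encodes the ferritin light chain, which helps the iron core to form. It held 251 and 196 TPM in Normal, 900, 1740 and 1308 in IC, 2199, 2896 and 5193 in IS, and 1062, 2441 and 1355 in IS-HA, in the order of the replicate numbers. As for the heavy chain, each IS rat was above each IC rat, and IS-HA replicate 2 was the only rat of its group inside the IS range. Against Normal it differed by 2.49 ± 0.57 log2 units in IC (adjusted p = 0.0127), 3.98 ± 0.61 in IS (adjusted p = 6.21e-04) and 2.91 ± 0.58 in IS-HA (adjusted p = 0.00439). The call in IC was lost without Normal replicate 1 (adjusted p = 0.0659), without Normal replicate 3 (0.145) and with the replicate block (0.175). The call in IS-HA was lost without Normal replicate 3 (0.0617). In mean TPM the light chain was 5.89, 15.4 and 7.25 times its Normal level in IC, IS and IS-HA, and the heavy chain was 2.89, 6.03 and 3.94 times its own.

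The heavy chain was the more abundant ferritin message in every rat, and its lead over the light chain was smaller after injury. The ratio of Fth1 to Ftl1 TPM was 18.7 and 14.4 in the Normal rats and lay between 5.43 and 10.3 in the 9 injured rats, so the groups did not overlap. The group means were 8.39 ± 1.59 (SD, n = 3) in IC, 7.07 ± 1.70 in IS and 9.25 ± 0.92 in IS-HA. These ratios are a description and were not tested. Both ferritin messages together made up 0.132% to 0.230% of the counts in the Normal rats, 0.418% to 0.753% in IC, 1.11% to 1.94% in IS and 0.577% to 1.40% in IS-HA.

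The ferritin values carry an uncertainty from near-identical copies in the rat genome, among which the counting could have split reads. The table lists 9 copies of Fth1, of which 4 held counts, together 4.12% of the Fth1 total and nearly all in the pseudogene Fth1-ps5. It lists 11 copies of Ftl1, of which 9 held counts, together 1.78% of the Ftl1 total. The second Ftl1 row, ENSRNOG00000020843, averaged 0.95, 5.09, 19.7 and 15.3 TPM in Normal, IC, IS and IS-HA and is counted among these copies. The values above are of the row paired with an Entrez gene, ENSRNOG00000064385. With the copies added to their parents, all ferritin calls against Normal stood as given.

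Slc40a1 encodes ferroportin, the iron exporter of the cell membrane. Its level was low throughout, at 3.17 and 3.19 TPM in Normal, 6.98, 6.72 and 4.06 in IC, 8.24, 5.28 and 5.77 in IS, and 6.29, 4.01 and 7.76 in IS-HA. Every injured rat was above both Normal rats, and the injured groups overlapped widely. Its difference from Normal was 1.02 ± 0.26 log2 units in IS (edgeR's quasi-likelihood F test, adjusted p = 0.00896), 0.88 ± 0.26 in IS-HA (adjusted p = 0.0275) and 0.83 ± 0.26 in IC. In IC the adjusted p, 0.05004, was just above the threshold and the gene was not called, although 6 of the 20 alternative fits called it. The IS call was lost without Normal replicate 3 (adjusted p = 0.0776), and the IS-HA call without either Normal rat (0.0981 and 0.177) or without IS-HA replicate 3 (0.0759). The replicate block ended both calls (0.0676 and 0.0892). With limma on log2(TPM + 1) neither was called (adjusted p = 0.0530 and 0.108), and with only the 2 groups in the fit IS-HA was not (0.0841). This is a long transcript, at 2.59 times the median length, and with the length correction it was called in all 3 comparisons with Normal, at 1.08 in IC, 1.56 in IS and 1.26 in IS-HA.

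Cp encodes ceruloplasmin, the copper ferroxidase that oxidizes iron leaving through ferroportin and that astrocytes hold on their surface. It stood at 3.86 and 4.94 TPM in Normal, 26.8, 46.4 and 30.1 in IC, 37.1, 26.3 and 46.6 in IS, and 45.1, 23.1 and 34.7 in IS-HA. All injured rats were far above Normal, and the 3 injured groups covered nearly the same range. Cp differed from Normal by 2.91 ± 0.34 log2 units in IC (adjusted p = 3.07e-04), 3.09 ± 0.34 in IS (adjusted p = 9.85e-05) and 2.93 ± 0.34 in IS-HA (adjusted p = 2.19e-04), and every alternative fit called it in each comparison. Between IS and IC the difference was 0.18, with a 95% interval of -0.40 to 0.76, and between IS-HA and IS it was -0.16, with an interval of -0.74 to 0.42. The export pair thus moved by different amounts: mean TPM was 8.33 times Normal for Cp and 2.02 times for Slc40a1 in IS.

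Both genes of the export pair and the uptake receptor Tfrc have a promoter in the RefSeq table of assembly GRCr8, which holds 7 of the 10 genes; the counts themselves were made on assembly mRatBN7.2. The 250 bases before the start of each are shown, in the direction of the gene, because Cp and Slc40a1 were called higher in IS and IS-HA and Tfrc was not called. Capitals mark the core of the hypoxia response element, ACGTG on either strand; the core of the antioxidant response element, TGACNNNGC on either strand, was searched as well and would also be in capitals.
Cp, chr2:104368420-104368669, plus strand: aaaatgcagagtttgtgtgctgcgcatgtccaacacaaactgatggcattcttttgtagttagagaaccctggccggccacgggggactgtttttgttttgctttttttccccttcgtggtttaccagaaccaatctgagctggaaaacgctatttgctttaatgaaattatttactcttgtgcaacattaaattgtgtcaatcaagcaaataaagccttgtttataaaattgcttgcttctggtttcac
Slc40a1, chr9:55543461-55543710, minus strand: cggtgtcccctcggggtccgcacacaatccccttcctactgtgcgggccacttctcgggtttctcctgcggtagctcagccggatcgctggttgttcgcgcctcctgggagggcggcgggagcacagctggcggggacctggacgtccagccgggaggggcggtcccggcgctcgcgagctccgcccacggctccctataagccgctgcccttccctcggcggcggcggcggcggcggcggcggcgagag
Tfrc, chr11:81690319-81690568, minus strand: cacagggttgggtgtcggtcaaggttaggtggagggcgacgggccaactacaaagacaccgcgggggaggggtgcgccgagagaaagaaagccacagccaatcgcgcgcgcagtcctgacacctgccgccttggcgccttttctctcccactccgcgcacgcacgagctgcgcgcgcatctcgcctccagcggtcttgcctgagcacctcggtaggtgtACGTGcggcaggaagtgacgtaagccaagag
The hypoxia core stands 1 time in the Tfrc window and in none of the other windows of the 7 genes, and the antioxidant core in none of them. Among the 33469 promoters of the table, 16.6% hold the hypoxia core and 10.1% the antioxidant core in the same 250 bases. A match is a run of letters and not a site, and a window without one says nothing about the factors.

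Tf encodes transferrin, which oligodendrocytes make in the brain. It held 374 and 506 TPM in Normal, 832, 1301 and 720 in IC, 793, 757 and 747 in IS, and 1034, 876 and 615 in IS-HA. Each injured rat was above both Normal rats, the IS rats were close to one another, and the injured groups overlapped. Differences from Normal were 1.05 ± 0.30 log2 units in IC (edgeR's quasi-likelihood F test, adjusted p = 0.0352), 0.82 ± 0.30 in IS (adjusted p = 0.0393) and 0.95 ± 0.30 in IS-HA (adjusted p = 0.0335). These were the calls nearest to the threshold: over the fits with 1 rat left out they were called in 6 of 11, 6 of 11 and 6 of 11, with adjusted p up to 0.184, 0.203 and 0.176. The replicate block ended all 3 calls, as did either Normal rat left out. So did IC replicates 3 and 4 and IS replicate 3 for IC, each of the 3 IS rats for IS, and IS replicate 3 and IS-HA replicates 1 and 2 for IS-HA, which was also lost with only the 2 groups in the fit (adjusted p = 0.101). The sum of 9 oligodendrocyte markers went the other way, with 18192 to 18819 TPM in Normal, 10851 to 15489 in IC, 6423 to 10812 in IS and 10086 to 15283 in IS-HA, and 1, 8 and 3 of the 9 were called lower. The part of these cells in the Tf level was not tested. The ratio of Tf to that sum was 0.0237 ± 0.0045 (SD, n = 2) in Normal, 0.0748 ± 0.0088 (n = 3) in IC, 0.0910 ± 0.0234 in IS and 0.0688 ± 0.0175 in IS-HA.

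Tfrc encodes the transferrin receptor, the uptake route for transferrin-bound iron. Its level was 57.3 and 75.0 TPM in Normal, 58.7, 84.3 and 68.6 in IC, 66.3, 45.1 and 109 in IS, and 61.9, 60.0 and 64.3 in IS-HA. All groups overlapped, and the IS rats spread the most. Fitted log2 differences from Normal were 0.04 in IC (95% interval -0.69 to 0.77), 0.19 in IS (-0.54 to 0.93) and -0.09 in IS-HA (-0.82 to 0.64), with adjusted p of 0.939, 0.650 and 0.848 by edgeR's quasi-likelihood F test. The intervals leave room for a change of up to about 0.9 in either direction. The sign is not settled either, since it turned in IC and IS with the replicate block and in IS-HA with library size alone or the length correction.

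Slc11a2 and Slc11a1 encode related transporters with different sites of work. Slc11a2 (DMT1) brings iron in from endosomes in most cells. It held 22.1 and 27.3 TPM in Normal, 21.6, 21.5 and 20.4 in IC, 21.2, 20.7 and 24.7 in IS, and 24.9, 20.9 and 25.5 in IS-HA. The IC rats lay just below both Normal rats, and the other groups overlapped with Normal. Its log2 fold change was -0.27 in IC (95% interval -0.63 to 0.09), -0.13 in IS (-0.49 to 0.23) and -0.07 in IS-HA (-0.43 to 0.29), with adjusted p of 0.259, 0.535 and 0.769. These are the narrowest intervals against Normal among the 10 genes, and they do not reach 0.3 above or 0.7 below Normal. With the length correction the sign in IS and IS-HA turned.

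Slc11a1 (NRAMP1) sits in the phagosome membrane of macrophages and moves metal ions out of the phagosome. It held 3.07 and 2.04 TPM in Normal, 52.2, 84.1 and 56.7 in IC, 116, 120 and 185 in IS, and 60.9, 92.6 and 75.8 in IS-HA. In TPM every injured rat was above both Normal rats, every IS rat was above every other injured rat, and IC and IS-HA overlapped. In CPM as normalized for the test, IS-HA and IS overlapped too. Slc11a1 differed from Normal by 4.58 ± 0.45 log2 units in IC (adjusted p = 1.36e-04), 5.79 ± 0.47 in IS (adjusted p = 3.13e-05) and 4.91 ± 0.45 in IS-HA (adjusted p = 8.21e-05), the largest of the 10 genes in each comparison, and every alternative fit called it. Within each rat the ratio of Slc11a1 to Slc11a2 was 0.139 and 0.0748 in Normal and on average 3.03 ± 0.78 (SD, n = 3) in IC, 6.25 ± 1.10 in IS and 3.28 ± 1.03 in IS-HA. The more abundant of these transporter messages was therefore Slc11a2 in the Normal rats and Slc11a1 in each of the 9 injured rats.

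Aco1 encodes the iron regulatory protein that doubles as cytosolic aconitase when it holds an iron-sulfur cluster, and Ireb2 encodes the one that is destroyed when iron is plentiful. Aco1 stood at 18.7 and 18.5 TPM in Normal, 30.2, 43.3 and 31.4 in IC, 37.1, 34.6 and 47.8 in IS, and 34.9, 29.7 and 36.7 in IS-HA. All injured rats were above both Normal rats. Aco1 differed from Normal by 0.85 ± 0.21 log2 units in IC (edgeR's quasi-likelihood F test, adjusted p = 0.0213), 1.12 ± 0.22 in IS (adjusted p = 0.00207) and 0.84 ± 0.21 in IS-HA (adjusted p = 0.0144). The IS call stood in every alternative fit. The IC call was lost without Normal replicate 1 (adjusted p = 0.0874), Normal replicate 3 (0.189), IC replicate 3 (0.0818) or IC replicate 4 (0.0536), and the IS-HA call without either Normal rat (0.0614 and 0.126). With the replicate block the IC and IS-HA calls were lost too (0.184 and 0.0508).

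Ireb2 held 14.6 and 20.0 TPM in Normal, 18.6, 16.2 and 14.6 in IC, 18.6, 12.9 and 12.6 in IS, and 19.2, 6.75 and 20.2 in IS-HA. The groups overlapped, and IS-HA replicate 2 was the lowest of all rats. The log2 fold change was -0.12 in IC (95% interval -0.78 to 0.54), -0.22 in IS (-0.89 to 0.44) and -0.23 in IS-HA (-0.89 to 0.43), with adjusted p of 0.806, 0.558 and 0.570. Ireb2 is 2.60 times as long as the median gene tested, and with the length correction the log2 fold change was 0.15, 0.33 and 0.12, so its direction is not settled. The ratio of Aco1 to Ireb2 was 1.28 and 0.928 in Normal, and on average 2.15 ± 0.53 (SD, n = 3) in IC, 2.82 ± 0.90 in IS and 2.68 ± 1.49 in IS-HA, with 1.62 as the lowest value of an injured rat. The IS-HA mean rests on replicate 2, at 4.39, since the other 2 rats stood at 1.81 and 1.82.

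**Figure D2:**
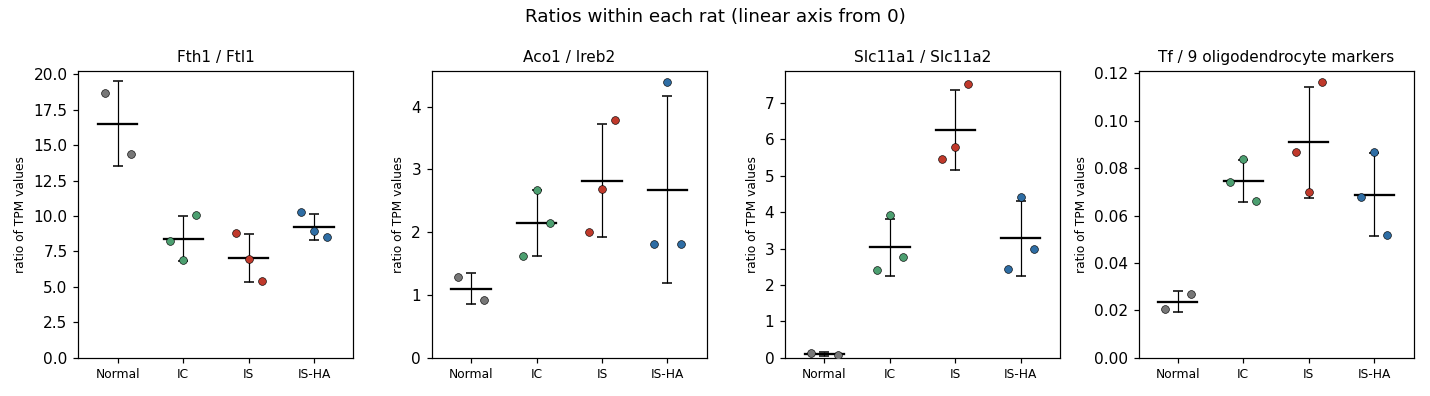
Ratios of TPM values within each rat (linear axes from 0) for the ferritin chains, the iron regulatory proteins, the divalent metal transporters, and Tf over the sum of 9 oligodendrocyte markers. Points are rats, lines are group means and bars are SDs; Fth1 to Ftl1 is lower, and the other 3 ratios are higher, in all 9 injured rats than in both Normal rats.

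The severity question is answered by IS against IC, for which no gene of the whole table was called (0% of the 15742 genes higher and 0% lower), so that none of the 10 iron genes was called either. This count of 0 differed between fits. DESeq2's Wald test called 976 genes (3.18% of those it adjusted higher and 3.42% lower). Without IS-HA replicate 2, which belongs to neither group but enters the shared estimate of spread, edgeR called 2241 (6.38% higher and 7.71% lower). With only IS and IC in the fit, which also leaves that library out, edgeR called 0 of 15043 genes. The 10 genes had a median log2 fold change of 0.19, and that of all genes was -0.00. At an unadjusted p under 0.05 there were 3 iron genes, all higher in IS: Fth1 at 1.13 ± 0.43 (95% interval 0.19 to 2.07, adjusted p = 0.180), Ftl1 at 1.48 ± 0.47 (0.45 to 2.51, adjusted p = 0.156) and Slc11a1 at 1.22 ± 0.31 (0.53 to 1.91, adjusted p = 0.147). In mean TPM these are ratios of 2.08, 2.61 and 2.18, and for these 3 genes alone among the 10 all IS rats were above all IC rats. The Wald test called 2 of them, Ftl1 (adjusted p = 0.0301) and Slc11a1 (adjusted p = 0.0153), and edgeR called all 3 when IS-HA replicate 2 was left out (adjusted p of 0.0425, 0.0322 and 0.0252). The other 7 genes differed by -0.23 to 0.27 log2 units between IS and IC.

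The aspiration question is answered by IS-HA against IS. Of all genes tested 0.00635% were called higher, which is the single gene Foxn3 (1.86, adjusted p = 0.0488), chosen here for its call, and 0% lower. The median log2 fold change of the 10 genes was -0.22 and that of all genes 0.05. Ftl1 was -1.06 ± 0.46 (95% interval -2.08 to -0.04, adjusted p = 0.553) and Slc11a1 -0.88 ± 0.31 (-1.57 to -0.20, adjusted p = 0.540), both at an unadjusted p under 0.05 and not called. DESeq2's Wald test called 68 genes (0.393% of those it adjusted, with 0.121% lower) and none of the 10. Fth1 was -0.58 ± 0.42 (-1.51 to 0.35, adjusted p = 0.659). In mean TPM the IS-HA level was 0.472 of the IS level for Ftl1, 0.545 for Slc11a1 and 0.654 for Fth1. Without IS-HA replicate 2, the library with the fewest counts, 695 genes were called (540 higher, or 3.4% of all genes tested, and 155 lower). In that fit Slc11a1 was called at -1.21 (adjusted p = 0.0498), and Fth1 and Ftl1 stood at -1.17 and -1.69 without a call. The remaining 7 genes lay between -0.28 and 0.13. A test for any difference among IC, IS and IS-HA called 0% of all genes and none of the 10, with Slc11a1 (adjusted p = 0.298), Ftl1 (0.324) and Fth1 (0.381) nearest, and without IS-HA replicate 2 it called 2 of the 10 and 6.76% of all genes.

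**Figure D3:**
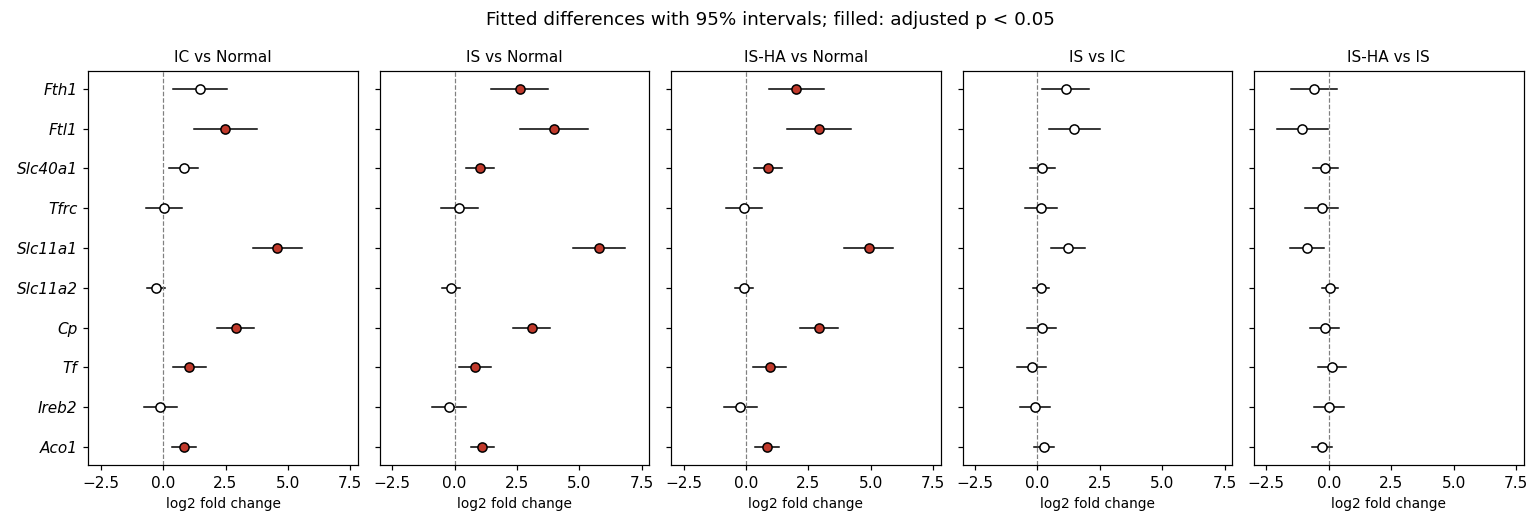
Fitted log2 fold change (x axis) of each iron gene (y axis) in the 5 comparisons, with 95% intervals as lines; filled points are calls at an adjusted p under 0.05 by edgeR's quasi-likelihood F test. Filled points number 5 in IC, 7 in IS and 7 in IS-HA against Normal, and there are none between the injured groups.

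Summed markers of blood-derived and resident phagocytes were also higher in the injured striatum. The sum of 12 microglia and macrophage markers was 278 to 394 TPM in Normal, 2335 to 3107 in IC, 4116 to 5323 in IS and 3027 to 5018 in IS-HA, and 11, 10 and 11 of the 12 were called higher than Normal in IC, IS and IS-HA. The 8 markers of infiltrating monocytes and macrophages summed to 46.4 to 50.1 TPM in Normal, 2602 to 8429 in IC, 8924 to 22007 in IS and 5974 to 8867 in IS-HA, and all 8 were called higher in each. The 8 neutrophil markers summed to 5.21 to 5.23, 90.5 to 279, 513 to 728 and 173 to 875 TPM, and all 7 that were tested were called higher. The 11 striatal neuron markers summed to 7750 to 7909 TPM in Normal, 3117 to 6184 in IC, 1542 to 3977 in IS and 2308 to 4069 in IS-HA, with 2, 10 and 8 of 11 called lower. None of the defining markers of any list was at 0 in any group. In this bulk tissue more cells of a type and more RNA per cell cannot be told apart, and the part of these cells in the iron gene levels was not tested.

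Relative to the 12 microglia and macrophage markers the iron genes did not keep 1 common ratio. Fth1 was 11.9 and 10.1 times their sum in the Normal rats and 3.80 ± 0.60 (SD, n = 3) in IC, 4.92 ± 0.33 in IS and 3.83 ± 0.45 in IS-HA. Slc11a1 went the other way, with 0.00757 ± 0.00032 of that sum in Normal and 0.0228 ± 0.0041, 0.0304 ± 0.0039 and 0.0206 ± 0.0024. Ftl1 stayed in between, at 0.670 ± 0.049 in Normal and 0.460 ± 0.090, 0.731 ± 0.225 and 0.417 ± 0.068 in IC, IS and IS-HA. Slc40a1, at 0.00976 ± 0.00243 in Normal, was at 0.00217 ± 0.00082, 0.00144 ± 0.00049 and 0.00175 ± 0.00084. These ratios were not tested. The remaining marker lists moved less or hold few genes: of 8 astrocyte markers 1 was higher and 1 lower in each injured group, of 6 endothelial markers 1 or 2 were higher and 0 or 1 lower, of 6 choroid plexus and ependyma markers tested 1 or 2 were higher and 0 or 1 lower, all 6 markers of dividing cells were higher, and of 4 T cell markers 1, 2 and 1 were higher in IC, IS and IS-HA. Of 10 red blood cell and erythroid markers 6 are in the table and 3 were tested, none of them called; their sum was 54.4 to 58.2 TPM in Normal, 39.6 to 166 in IC, 25.2 to 38.9 in IS and 16.3 to 32.7 in IS-HA.

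Other genes of iron handling were read as a list of 36, all found in the table and 28 with enough counts to be tested. Of the 28, 6 were called higher and 0 lower in IC against Normal, 10 higher and 2 lower in IS, and 9 higher and 0 lower in IS-HA (1 lower with DESeq2's Wald test), against the same shares of all genes as above. None was called between IS and IC or between IS-HA and IS, where 4 of the 28 were at an unadjusted p under 0.05 in each and DESeq2's Wald test called Hmox1 (1.66, adjusted p = 0.00137) and Slc39a8 (1.03, adjusted p = 0.0332) higher in IS than IC and Hmox1 lower in IS-HA than IS (-1.37, adjusted p = 0.0372). Over the 28 the median log2 fold change from Normal was 0.26 in IC, 0.31 in IS and 0.18 in IS-HA, and 10, 14 and 11 of them were at an unadjusted p under 0.05. Hmox1 and Lcn2 had the highest log2 fold changes of the list in all 3 comparisons with Normal. The genes of mitochondrial iron, sensing and chaperoning were not called in the reported fit. Without Normal replicate 1 the count in IC was 3 higher (6.51% of all genes), and in IS-HA 3 higher (10.6%). Without Normal replicate 3 it was 3 higher in IC (4.96%), 4 higher in IS-HA (7.62%) and 1 lower in IS (10.6%). Without IS replicate 3 or IS replicate 4 the count lower in IS was 1, against 19.3% and 17.7% of all genes. Without IS-HA replicate 2, Hmox1 and Slc39a8 were called higher in IS than IC (adjusted p = 0.0243 and 0.0436) and Neo1 higher in IS-HA than IS (adjusted p = 0.0496).

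Hmox1 encodes heme oxygenase 1, which opens the heme ring and frees its iron. It held 9.34 and 5.76 TPM in Normal, 719 to 1416 in IC, 2346 to 3992 in IS and 901 to 1455 in IS-HA, and every IS rat was above every other rat. The log2 fold change against Normal was 7.01 in IC (edgeR's quasi-likelihood F test, adjusted p = 1.15e-04), 8.65 in IS (adjusted p = 3.13e-05) and 7.31 in IS-HA (adjusted p = 6.44e-05), and IS against IC was 1.64 (adjusted p = 0.143). The heme transporters Slc48a1 (0.91, adjusted p = 0.00576) and Flvcr2 (1.40, adjusted p = 0.0224) were called in IS against Normal and not in IC or IS-HA, and IS against IC was not called for either (adjusted p = 0.167 and 0.356). The Flvcr2 call was lost without either Normal rat (adjusted p = 0.127 and 0.0812) or without IS replicate 4 (0.82, adjusted p = 0.0743), and the Slc48a1 call without Normal replicate 3 (adjusted p = 0.0593). The replicate block ended the calls of Flvcr2 and Slc48a1 (adjusted p = 0.184 and 0.0785). Hmox2 and Flvcr1 were not called in any comparison of the reported fit. Flvcr1 was called higher in IS than Normal with only the 2 groups in the fit (adjusted p = 0.0472) and with the length correction (0.0345).

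Lcn2, lipocalin 2, binds the iron carriers of bacteria and is secreted by reactive astrocytes and neutrophils. It rose from 1.38 and 1.88 TPM in Normal to 187 to 386 in IC, 192 to 378 in IS and 255 to 361 in IS-HA, and the injured groups overlapped fully. The log2 fold change was 7.37, 7.42 and 7.57 (adjusted p = 4.48e-05, 3.13e-05 and 5.55e-05), and IS against IC was 0.05 (adjusted p = 0.922). Its receptor gene Slc22a17 was lower in IS, at -0.97 (adjusted p = 0.00586), a call that was lost with the replicate block (0.0602). Lactoferrin, Ltf, is listed at 0 in every rat.

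Among reductases and other importers, 7 of the 8 genes had a positive log2 fold change in IS and 5 of the 8 were called higher, against 50.7% of all genes with a positive value and 24.8% called higher. The ferrireductase family gave Steap1 (4.59, adjusted p = 0.00258), Steap4 (2.14, adjusted p = 0.00904) and Steap3 (1.15, adjusted p = 0.00347), whereas Steap2 was at -0.31 (adjusted p = 0.395). The replicate block ended the Steap3 call (0.0914). Steap1 was near the floor in Normal, at 0 and 0.42 TPM, against 2.61 to 7.32 in IS, so its fold is imprecise. Slc39a8, a zinc transporter that also carries iron, held 3.90 and 2.73 TPM in Normal, 11.1 to 15.3 in IC, 19.2 to 34.9 in IS and 10.7 to 13.7 in IS-HA, and was called at 1.91, 2.91 and 1.84 (adjusted p = 0.00461, 2.26e-04 and 0.00405). Its IS rats were above all other rats, with an adjusted p of 0.151 against IC. Without Normal replicate 3 its calls in IC and IS-HA were lost (adjusted p = 0.0803 and 0.0611), and the replicate block ended its IC call (0.0587). Slc46a1, a folate and heme carrier, was called at 0.84 in IS (adjusted p = 0.0119), though not without Normal replicate 3 (adjusted p = 0.109) or with the replicate block (0.146). In IS-HA, Slc46a1 was called at 0.65 and Cybrd1 at 1.12 (adjusted p = 0.0494 and 0.0451 by edgeR's quasi-likelihood F test). Both calls were lost without either Normal rat and with the replicate block (0.172 and 0.160).

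The hepcidin hormone itself was hardly detected: Hamp held 14 counts over the 11 rats and was not tested. Of its upstream genes, Hfe was called higher in all 3 injured groups, at 1.62, 1.85 and 1.19 (adjusted p = 0.0142, 0.00287 and 0.0353). Its IC call was lost without either Normal rat (adjusted p = 0.0642 and 0.160), and its IS-HA call without either Normal rat, IC replicate 2 or 4, or IS-HA replicate 1 or 3 and with only the 2 groups in the fit (adjusted p of 0.0512 to 0.227 over these 7 fits), with the length correction (0.0873) and with limma (0.0720). The replicate block ended the Hfe calls in IC and IS-HA (adjusted p = 0.102 and 0.0909). Neo1 was called lower in IS, at -1.43 (adjusted p = 0.0187). That call was lost without Normal replicate 3 (adjusted p = 0.125), IS replicate 3 (0.0628) or IS replicate 4 (0.0611). It was also lost with the replicate block (0.260), with limma (0.0568) and with the length correction, where the value was -0.70 (0.0848). Tfr2 and Bmp6 were not called in any comparison. Neo1 held 10.1 and 14.8 TPM in Normal and 6.73, 3.59 and 3.49 in IS, and IS-HA replicate 2 was at 2.32 while the other 2 rats of that group stood at 10.7 and 9.49.

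Of mitochondrial iron genes 4 were read, and none was called in any comparison of the reported fit. The scaffold gene Iscu, on which iron-sulfur clusters are built, was at 0.81 in IS (adjusted p = 0.0812). It was called higher in IS with library size alone (0.0336), with only the 2 groups in the fit (0.0111), without IS-HA replicate 2 (0.00301) and with limma (0.0279). In IS-HA, Iscu was called with library size alone (0.0415), without IS-HA replicate 1 (0.0418) or 3 (0.0474) and with limma (0.0489). The mitochondrial iron importers Slc25a37 and Slc25a28 were at -0.03 and -0.02. The ferroxidase Heph was not called either. Fbxl5, the iron sensor that targets the Ireb2 protein for destruction, held 29.5 to 50.0 TPM over all 11 rats and was at 0.05 in IS (adjusted p = 0.813), and the ferritin chaperones Pcbp1 and Pcbp2 were not called either. Ncoa4, the receptor that brings ferritin to the lysosome, stands on 2 rows with 50 and 0 counts over all rats, too few to test, and such counts for a gene that is widely used are not read here as its level.

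**Figure D4:**
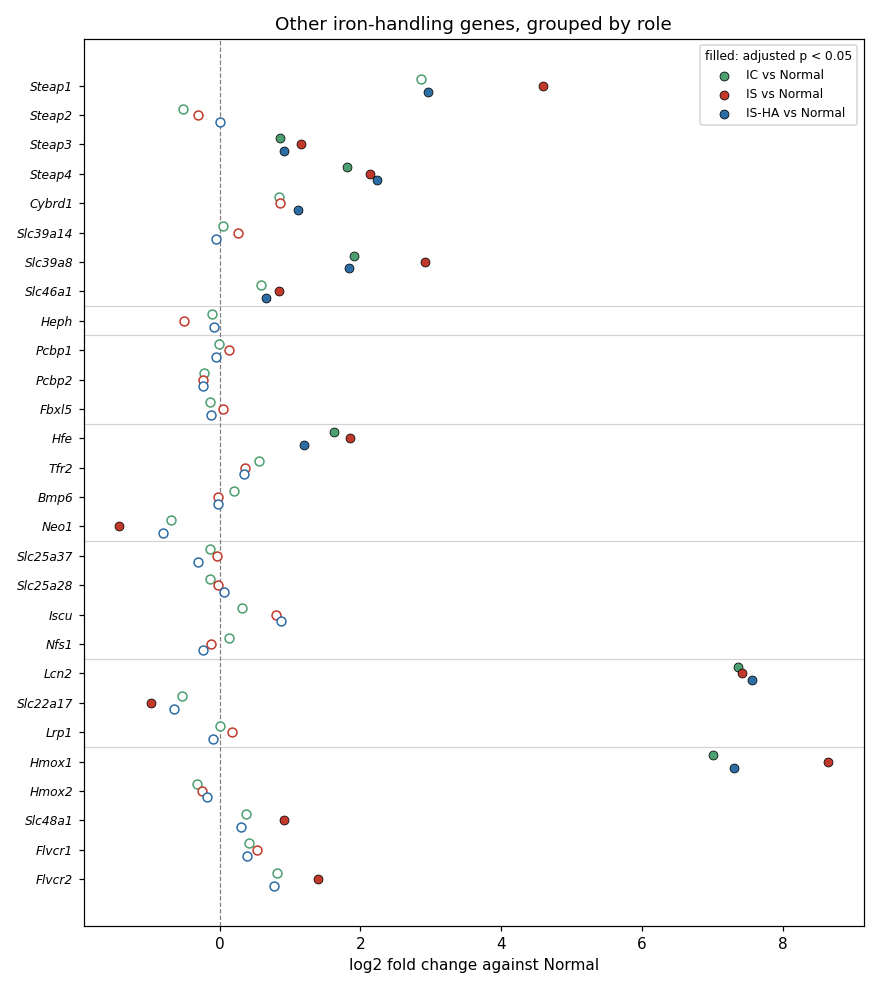
Log2 fold change against Normal (x axis) of the 28 tested genes of iron handling outside the 10 (y axis, grouped by role between grey lines: importers and reductases, ferroxidase, chaperones and sensing, hepcidin axis, mitochondrial iron, lipocalin and lactoferrin partners, heme). Colors are IC, IS and IS-HA, and filled points are calls at an adjusted p under 0.05; Hmox1 and Lcn2 lie beyond 7 in all 3 groups and 2 genes, Neo1 and Slc22a17, are called lower in IS.

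For each of the 10 genes the 2 genes of the table with the most similar course over the 11 rats were found by the root mean square difference of centred log2 CPM. For Ftl1 they were Metrnl (0.16 log2 units) and Ninj1 (0.18), where the median gene stood 1.42 away, and for Fth1 they were Rplp0 (0.16) and Snx8 (0.17) with a median of 1.05. Slc11a1 was nearest to Ncf4 (0.20), a subunit of the phagocyte oxidase, and St14 (0.24), with a median of 2.04, and Cp to Mpeg1 (0.17), a macrophage gene, and Kif18b (0.18). For Aco1 they were Mapre1 (0.07) and Arap1 (0.08), for Slc40a1 Arhgap42 (0.14) and Rab8b (0.16), and for Tf Lap3 and Dstl1 (0.18 each). The 3 genes without a call had near neighbours too, Vti1a (0.08) and Chmp7 (0.08) for Slc11a2, Cpsf2 (0.10) and Erlin2 (0.11) for Ireb2 and Slc25a30 (0.18) and Cep63 (0.18) for Tfrc. Likeness of this kind is over 11 rats in 4 groups that share libraries and is a description.

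Ordered by mean TPM, the 10 genes in the Normal rats were Fth1 (3747), Tf (440), Ftl1 (223), Tfrc (66.2), Slc11a2 (24.7), Aco1 (18.6), Ireb2 (17.3), Cp (4.40), Slc40a1 (3.18) and Slc11a1 (2.56). Of neighbours in this order, Aco1 and Ireb2 had overlapping values in the Normal rats and the others did not. In IS the order was Fth1 (22593), Ftl1 (3429), Tf (766), Slc11a1 (140), Tfrc (73.5), Aco1 (39.8), Cp (36.7), Slc11a2 (22.2), Ireb2 (14.7) and Slc40a1 (6.43). Ftl1 passed Tf and Slc11a1 moved from the last place to the fourth. Among the IS rats Tfrc overlapped with Aco1, and Aco1 with Cp, whereas the other neighbours in the order did not overlap.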

How the data were processed

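RNA from the striatum of 11 rats was measured as poly(A) RNA-seq (stranded TruSeq mRNA kit, paired reads). Per the submitters' processing notes, the tools were bcl2fastq, fastp 0.20.0, FastQC 0.11.9, MultiQC, HISAT2 2.1.0, SAMtools 1.9, featureCounts of Subread and DESeq2, with assembly mRatBN7.2; the annotation release and the strand setting of the counting are not given in the sources used here. The authors deposited read counts per gene as whole numbers without normalization or filter, and TPM, in which the authors divided counts by gene length and scaled each rat to the same sum. Column names were tied to rats through the library names that the labels carry, which left 0 columns without a rat. With reads that carry no molecular identifiers, floors cover counting error only. The labels do not say more about the replicates than a number. The p-values rest on the spread between rats within groups, estimated from all 4 groups together and moderated over all genes tested.

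The counts of all 30560 genes were filtered with filterByExpr, normalized by TMM and tested with the quasi-likelihood F test of edgeR 4.0.16 in R 4.3.3, with all 4 groups in 1 model and Benjamini-Hochberg adjustment across the 15742 genes kept. The common dispersion was 0.0691. Each standard error is an approximation (absolute fold change over the root of F), and 95% intervals use the fit's degrees of freedom. Where a symbol stands on 2 rows, the row paired with an Entrez ID was used. The method was tested on simulated data. Named are the 10 members, the 2 tested genes nearest to each, a list of other iron-handling genes by role with up to 8 of them called in IS against Normal by size, and marker lists of cell types. The genes named beyond that (other genes of the list) were taken after their values were seen. The members and lists were chosen with earlier results of these data known. Alternatives were DESeq2 1.42.0 (its Wald test, or its size factors in edgeR), scaling by library size, dropping the count filter, fitting the compared groups alone, leaving out each rat, the replicate block, TMM without hemoglobin and mitochondrial genes, and a fold threshold. Added after the data were seen were a gene length correction, ferritin copies summed and limma 3.58.1 with trend on log2(TPM + 1). Protein and staining measurements were not analysed here, and 3 genes of the iron-handling list are not reported here. Promoters came from RefSeq (assembly GRCr8) and were searched for 2 motifs. Python 3.11.15 with matplotlib 3.10.9 drew the plots.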

Additional observations from a re-analysis of the deposited data

How the results depend on the processing

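Of the 50 fitted differences of the 10 iron genes, 19 were called. None of the 385 alternative values of these 19 changed direction, 341 kept the call and 44 lost it, and 8 kept it in every alternative: Slc11a1 and Cp in all 3 comparisons with Normal, and Ftl1 and Aco1 in IS. Of the 625 alternative values of the 31 differences that were not called, 18 became calls and 36 changed sign. Where the cause of a change is not given it was not tested. The smallest library held 6701301 counts, and the effect of depth on these differences was not tested. With 2 Normal rats the 95% intervals of Fth1 and Ftl1 span more than 2 log2 units.

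Iron genes higher than Normal numbered 2 to 7 in IC over the fits with 1 rat left out (5 reported) and 2 to 7 in IS-HA (7 reported). Over those fits 4.96% to 19.2% of all genes were called higher in IC and 7.62% to 20.8% in IS-HA. With only the groups compared, iron genes higher in IS-HA numbered 4, where 10.6% of all genes were called higher. With a log2 fold change of at least 1 they also numbered 4, and no share of all genes is given for that threshold. The number higher in IS than IC was 2 with DESeq2's Wald test and 0 to 3 with 1 rat left out, the number lower in IS-HA than IS was 0 to 1, and the number differing among the injured groups was 0 to 2. Library size alone moved the median of all genes by 0.14, 0.13 and 0.13 log2 units in IC, IS and IS-HA against Normal.

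The replicate numbers name different animals. The correlation of deviations from the group means was 0.034 on average for same-numbered rats of IC and IS (-0.34 to 0.36). It was -0.28 for IS and IS-HA, -0.16 for IC and IS-HA, and -0.01 for Normal and IS-HA. Each pair of groups shares only 1 to 3 numbers, too few to decide whether rats of the same number belong together. With the replicate block, iron genes higher than Normal numbered 2 in IC, 4 in IS and 3 in IS-HA, where the share of all genes called higher fell too, to 5.23%, 11.9% and 11.1%. Other iron-handling genes numbered 2 higher in IC, 6 higher and 0 lower in IS, and 4 higher and 0 lower in IS-HA. In that fit 5.77% of all genes were called lower in IS and 4.22% in IS-HA.

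Other iron-handling genes higher than Normal numbered 3 to 8 in IC (6 reported), 7 to 11 in IS (10) and 3 to 9 in IS-HA (9) with 1 rat left out, and those lower 0 in IC (0), 1 to 2 in IS (2) and 0 to 1 in IS-HA (0). The share of all genes called moved too. It was 4.96% to 19.2% higher in IC, 14% to 30.2% in IS and 7.62% to 20.8% in IS-HA. The share lower was 0.217% to 14.1%, 10.6% to 29.2% and 2.18% to 12.9%. With only the groups compared the list held 1 gene lower in IC (16.7% of all genes) and 3 higher in IS-HA (10.6%). It held 1 lower in IS with limma (18.9% of all genes), with the length correction (22.6%) and with a log2 fold change of at least 1. In IS-HA those lower were 1 with DESeq2's size factors (13.7% of all genes), with its Wald test (15.2%), without the count filter (8.22%) and with the length correction (12.5%). Between IS and IC the list held 2 higher with the Wald test (3.18% of all genes). With 1 rat left out it held 0 to 2 higher (0% to 6.38%) and 0 to 1 lower (0% to 7.71%). Between IS-HA and IS it held 1 lower with the Wald test (0.121% of all genes) and 0 to 1 higher with 1 rat left out (0% to 3.4%). Without IS-HA replicate 2, Ncoa4 with its 50 counts entered the test and is among these calls.

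The sign of differences that were not called turned as follows, in log2 units. Tfrc was -0.27 in IC and -0.22 in IS against Normal and 0.091 in IS-HA against IS with the replicate block, 0.032 with library size alone and 0.18 with the length correction in IS-HA against Normal, and -0.018 in IS against IC with limma. Slc11a2 was 0.17 in IS and 0.15 in IS-HA against Normal and -0.011 in IS-HA against IS with the length correction, and 0.060 in IS-HA against Normal with library size alone. Ireb2 was 0.15 in IC, 0.33 in IS and 0.12 in IS-HA against Normal and 0.18 in IS against IC with the length correction, 0.017 in IC and 0.0082 in IS-HA against IS with library size alone, and 0.061 in IC with the replicate block. With 1 rat left out, Tfrc ranged from -0.080 to 0.18 in IC, -0.28 to 0.47 in IS and -0.22 to 0.041 in IS-HA against Normal, -0.33 to 0.42 in IS against IC and -0.58 to 0.19 in IS-HA against IS. Slc11a2 ranged from -0.15 to 0.017 in IS-HA against Normal and -0.022 to 0.20 in IS-HA against IS, and Ireb2 from -0.27 to 0.044 in IC, -0.44 to 0.059 in IS-HA and -0.22 to 0.28 in IS-HA against IS. Cp ranged from -0.095 to 0.40 in IS against IC and -0.39 to 0.11 in IS-HA against IS, Tf from -0.34 to 0.017 and -0.043 to 0.33, and Slc40a1 from -0.32 to 0.016 in IS-HA against IS.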
